A study of Mus musculus with 10 samples.

Results

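The tubulin isoforms were the 10 genes Tuba1a, Tuba1b, Tuba1c, Tuba4a, Tuba8, Tubb2a, Tubb2b, Tubb4b, Tubb5 and Tubb6, taken by gene symbol from 55401 genes. They comprise 5 alpha-tubulin and 5 beta-tubulin genes. RNA-seq was performed on left ventricular (LV) tissue of 5 mice that had undergone neonatal ascending aortic constriction (nAAC) and 5 sham-operated mice. All 10 mice were wild type (WT) C57BL/6 animals taken at 4 weeks of age, and both groups had stayed with their mothers. The study placed females and males in its groups at random, and the sex of these 10 mice is not given in the sources used here. The operation had been done on newborns within a day of birth, so the LV of the nAAC mice had worked against a narrowed aorta for most of their lives. Levels are given as FPKM (fragments mapped to a gene, divided by transcript length and by the depth of the library), which can be compared between genes because they are per length. Log2 fold changes (log2 FC) are nAAC minus sham on the log2(FPKM + 1) scale.

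Microtubules are hollow polymers of alpha- and beta-tubulin heterodimers, and each class is encoded by several genes that differ mainly at the acidic C-terminal tail. That tail projects from the polymer surface and is where motors, microtubule-associated proteins and modifying enzymes act. In cardiomyocytes, detyrosinated microtubules bind desmin at the Z-disc and buckle with each beat, which adds to the stiffness of the cell, and a denser microtubule network is a known feature of pressure-overloaded myocardium.

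The final coding bases of 7 of the genes are shown. In alpha-tubulin the last codon decides whether the chain is made with the C-terminal tyrosine of the tyrosination cycle. In this cycle, the vasohibin Vash1 with its partner Svbp removes the C-terminal tyrosine and the ligase Ttl restores it. The following are the last 60 coding bases from GENCODE M21 transcripts, 5′ to 3′, with the codon before the stop codon in capitals.
Tuba1c: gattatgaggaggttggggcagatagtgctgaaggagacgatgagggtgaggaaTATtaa
Tuba4a: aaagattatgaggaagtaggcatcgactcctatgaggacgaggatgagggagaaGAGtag
Tuba8: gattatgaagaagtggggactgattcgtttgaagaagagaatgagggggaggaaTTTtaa
Tubb2a: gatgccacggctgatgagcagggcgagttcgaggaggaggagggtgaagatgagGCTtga
Tubb2b: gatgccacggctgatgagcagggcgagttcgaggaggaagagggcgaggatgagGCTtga
Tubb4b: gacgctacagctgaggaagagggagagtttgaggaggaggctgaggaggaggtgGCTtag
Tubb5: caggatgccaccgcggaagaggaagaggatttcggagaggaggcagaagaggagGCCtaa
These ends lay at chr15:99037950-99038009, chr1:75215622-75215681, chr6:121226020-121226079, chr13:34074468-34074527, chr13:34127471-34127530, chr2:25222308-25222367 and chr17:35834982-35835041 of GRCm38, on the plus strand for Tuba1c and Tuba8 and on the minus strand for the others. Each ended within the last coding exon.

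Among the alpha-tubulin genes, Tuba1a, Tuba1b and Tuba1c ended in a tyrosine codon, whereas Tuba4a ended in GAG and Tuba8 in TTT. Tuba4a protein is known to be made without the terminal tyrosine. Tubb2a, Tubb2b and Tubb4b shared the final codon GCT. Tuba1a and Tuba1b had 98.3% identity over their coding sequences, and Tubb2a and Tubb2b 96.49%. Tuba4a was more distant, with 85.3 to 85.9% identity to the Tuba1 genes. The first 12 coding bases were also compared, because tubulin autoregulation acts on mRNAs whose nascent chain begins with the tubulin N-terminus. Tuba1a, Tuba1b and Tuba1c all began with ATGCGTGAGTGC, and Tuba4a with ATGCGCGAGTGC, 1 base apart. The codons that differ, CGT and CGC, both encode arginine, so these bases encode the same start of the chain.

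All 10 genes passed the filter of a mean FPKM of at least 1, which left 11867 genes. In nAAC hearts, 9 of the 10 tubulin genes were higher at an adjusted p below 0.05 (limma, Benjamini-Hochberg over all genes tested), against 27.1% of all genes tested. None was lower, against 4.6% of all genes, and Tuba4a was the member that did not pass. Of the 9, 7 were differentially expressed genes (DEGs) with a log2 FC above 1, against 5.01% of all genes, and none was a DEG in the other direction, against 0.893%. In 9 of 10 genes every nAAC library was above every sham library, against 18.9% of all genes, and in none was every nAAC library below every sham library, against 3.46%. The median log2 FC of the 5 alpha-tubulin genes was 1.19 and that of the 5 beta-tubulin genes was 1.39, while the median over all genes tested was 0.22. After median-ratio scaling the median of all genes moved to -0.02, and the same 9 genes were still higher. The number of DEGs among them was then 5, and it was 4 after removal of GC and length trends. The shares of all genes called in these settings are not given here.

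**Figure D1:**
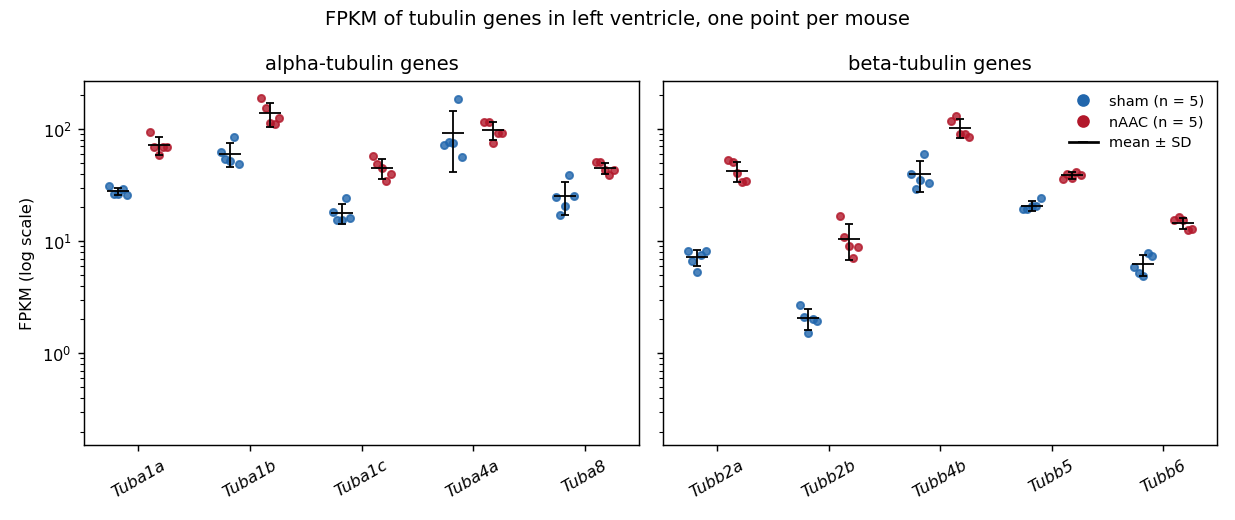
FPKM (log axis) of the 5 alpha-tubulin genes (left) and 5 beta-tubulin genes (right) in each of 5 sham (blue) and 5 nAAC (red) mice, with mean and SD in black. Tubb2a and Tubb2b show the widest gaps between the groups, and the groups overlap for Tuba4a, where 1 sham mouse reached 184.1.

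Tubb2a, a beta-tubulin best known from neurons, had the largest change of the family. Its FPKM was 8.14, 6.62, 5.33, 7.47 and 8.22 in the 5 sham mice. In the nAAC mice it was 52.7, 50.9, 40.3, 33.5 and 34.5. The lowest nAAC mouse was thus well above the highest sham mouse. The mean rose from 7.16 ± 1.21 to 42.4 ± 9.0 (SD, n = 5), a ratio of 5.92, with a log2 FC of 2.40 (SE 0.16, limma adjusted p = 4.26e-07). It ranked 50 of 11867 genes by log2 FC.

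Tubb2b, the close paralog of Tubb2a on the same chromosome, was the least abundant member in both groups. Its FPKM was 2.71, 2.12, 1.51, 2.001 and 1.95 in sham mice and 16.6, 10.8, 9.06, 7.11 and 8.93 in nAAC mice. The nAAC mice differed among themselves by more than the sham mice did, and replicate 1 was the highest. The log2 FC was 1.87 (SE 0.18, limma adjusted p = 9.60e-06), rank 109. The ratio of Tubb2a to Tubb2b was 3.52 ± 0.49 in sham and 4.18 ± 0.67 in nAAC mice, and these ranges overlapped. Part of the reads could have been assigned to either gene, since 36.93% of 100-base windows of Tubb2a and 27.75% of those of Tubb2b occur in another annotated transcript. Their sum was 9.21 ± 1.54 in sham and 52.9 ± 12.2 in nAAC mice, a ratio of 5.74.

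Tubb4b, the most abundant beta-tubulin of these hearts, had an FPKM of 39.8, 28.9, 35.5, 59.6 and 33.3 in sham mice. In nAAC mice it was 118.1, 132, 90.5, 89.9 and 85.4. The groups did not overlap, although sham replicate 4 stood above the other 4 sham mice. The log2 FC was 1.39 (SE 0.19, limma adjusted p = 0.00017). Adding its 2 related loci changed the ratio of means from 2.62 to 2.60.

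Tubb5 is a widely expressed beta-tubulin. Its FPKM was 19.3, 19.4, 20.6, 20.4 and 24.3 in sham and 35.9, 39.7, 36.4, 41.7 and 39.3 in nAAC mice. No 100-base window of its transcript was shared with another annotated transcript. The log2 FC of 0.86 (SE 0.11, limma adjusted p = 6.93e-05) was below the DEG threshold. Tubb6, a beta-tubulin abundant in developing and regenerating muscle, had 5.92, 5.22, 4.87, 7.89 and 7.40 FPKM in sham mice. In nAAC mice it had 15.5, 16.3, 15.3, 12.6 and 12.8 FPKM. All nAAC mice were above all sham mice, with a log2 FC of 1.11 (SE 0.14, limma adjusted p = 7.29e-05).

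The 3 Tuba1 genes lie next to each other on chromosome 15 and encode almost identical proteins. Tuba1b, the most abundant of them, had an FPKM of 63.1, 53.9, 51.6, 84.2 and 49.0 in sham mice and 191.1, 153.5, 113.6, 111.7 and 124.4 in nAAC mice. The log2 FC was 1.19 (SE 0.19, limma adjusted p = 0.000458). Tuba1a, the major alpha-tubulin of the developing brain, had 30.9, 26.3, 26.6, 29.1 and 25.9 FPKM in sham and 93.9, 69.9, 58.6, 69.0 and 69.5 FPKM in nAAC mice. Sham mice were close together for this gene, and every nAAC mouse lay above them, with a log2 FC of 1.33 (SE 0.13, limma adjusted p = 1.08e-05). Tuba1c had 18.1, 15.5, 15.4, 24.2 and 15.9 FPKM in sham and 57.6, 49.0, 45.4, 34.3 and 39.4 FPKM in nAAC mice. Its log2 FC was 1.29 (SE 0.16, limma adjusted p = 7.77e-05).

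The proportions among the Tuba1 genes overlapped between the groups. Tuba1a made up 26.6 ± 3.1% of their summed FPKM in sham and 28.4 ± 2.6% in nAAC mice, Tuba1b 56.6 ± 2.8% and 53.9 ± 2.0%, and Tuba1c 16.8 ± 0.7% and 17.7 ± 1.9%. The split between them is uncertain, because 65.85% of the 100-base windows of Tuba1a, 72.99% of Tuba1b and 53.43% of Tuba1c occur elsewhere among annotated transcripts. Gm49450, annotated on the same strand across Tuba1a and Tuba1b, was at 1.15 FPKM in sham and 8.19 in nAAC mice. The sum of the 3 genes was 105.9 ± 19.5 in sham and 256.2 ± 53.5 in nAAC mice, a ratio of 2.42. With the 8 related loci of at least 95% identity added, the ratio was 2.44.

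Tuba8, an alpha-tubulin known from heart, skeletal muscle and testis, had an FPKM of 24.9, 17.2, 20.5, 38.79 and 25.1 in sham mice. In nAAC mice it was 50.4, 50.4, 42.8, 39.05 and 42.9. The groups only just separated, since sham replicate 4 almost reached nAAC replicate 4. The log2 FC was 0.86 (SE 0.18, limma adjusted p = 0.003735), and 1.02 without sham replicate 4.

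Tuba4a, an alpha-tubulin of muscle and other differentiated tissues, was the most abundant member in sham hearts. Its FPKM was 71.7, 77.0, 75.2, 184.1 and 55.9 in sham and 114.9, 115.3, 75.2, 91.6 and 92.6 in nAAC mice. The highest single value belonged to sham replicate 4, and the groups overlapped. The log2 FC was 0.19 (SE 0.27, limma adjusted p = 0.596). Without sham replicate 4 the sham mean fell from 92.8 to 69.9 and the log2 FC was 0.47 (adjusted p = 0.0288), whereas after median-ratio scaling of all mice it was -0.10. In that library the summed FPKM of 12 cardiomyocyte markers was 41170, against 21280 to 30500 in the other sham mice, and mitochondrial genes took 33.7% of TPM, against 38.3 to 49.8%. The part of these differences in the Tuba4a value was not tested. Stk16, a kinase gene on the opposite strand, covers 46.7% of the 100-base windows of Tuba4a. Its own level was 6.34 FPKM in sham and 8.20 in nAAC mice, and whether strand was used in counting is not given, so the reads of the overlap are uncertain.

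**Figure D2:**
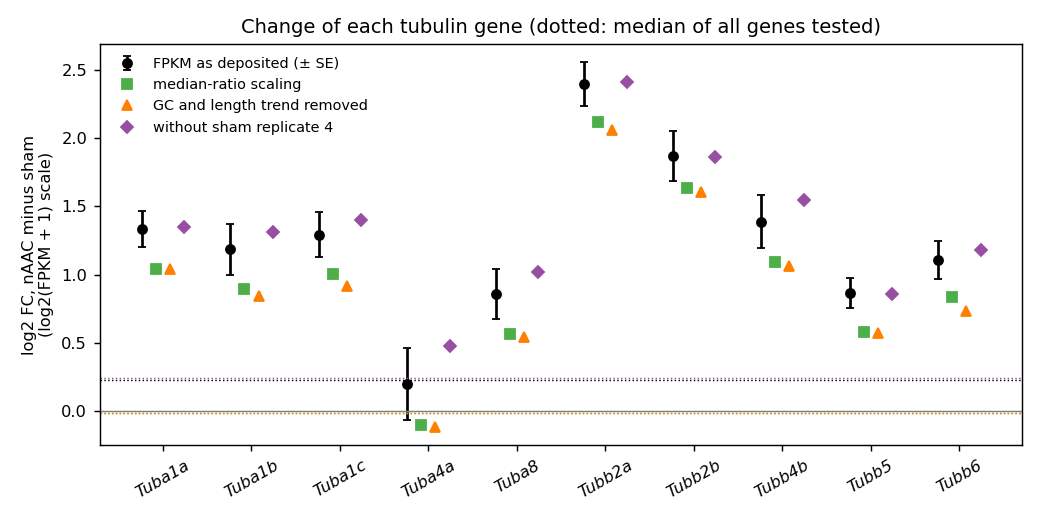
Log2 FC (nAAC minus sham, log2(FPKM + 1) scale) of each tubulin gene from FPKM as deposited (black, with SE), after median-ratio scaling (green), after removal of GC and length trends (orange) and without sham replicate 4 (purple), with dotted lines at the median of all genes tested. Under each of these settings Tubb2a has the largest value and Tuba4a the smallest, and Tuba4a falls below 0 under the scaling and the trend removal.

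The order of the levels also differed between sham and nAAC hearts. In sham hearts it ran from Tuba4a through Tuba1b, Tubb4b, Tuba1a, Tuba8, Tubb5 and Tuba1c to Tubb2a, Tubb6 and Tubb2b. Neighbours in this order had overlapping ranges except at the steps from Tuba1c to Tubb2a and from Tubb6 to Tubb2b. In nAAC hearts it ran from Tuba1b through Tubb4b, Tuba4a and Tuba1a to Tuba1c, Tuba8, Tubb2a and Tubb5, and then to Tubb6 and Tubb2b. Here the steps without overlap were from Tuba1a to Tuba1c and from Tubb5 to Tubb6. Tubb2a, which in sham mice overlapped with Tubb6 near the bottom, overlapped in nAAC mice with Tuba1c, Tuba8 and Tubb5.

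To describe the composition of each class apart from its total, the share of each gene in the summed FPKM of the 5 alpha or 5 beta genes was compared by two-sided exact permutation tests, for which 5 against 5 mice allow no p below 0.0079. The 10 tests were not adjusted, and shares within a class sum to a whole, so they are not independent. In 6 of the 10 genes the shares of nAAC and sham mice did not overlap.

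Tuba4a lost the largest share. It made up 34.4, 40.6, 39.7, 51.1 and 32.5% of alpha-tubulin FPKM in sham mice and 22.6, 26.3, 22.4, 26.5 and 25.1% in nAAC mice. No nAAC mouse reached the lowest sham mouse, and the mean difference was -15.06 percentage points (exact permutation p = 0.0079). Without sham replicate 4 it was -12.2 percentage points.

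The share of Tuba1b rose from 27.6 ± 2.6 to 34.5 ± 2.0%, that of Tuba1a from 13.2 ± 2.9 to 18.1 ± 1.5% and that of Tuba1c from 8.19 ± 0.95 to 11.3 ± 1.3% (exact permutation p = 0.0079 for each, n = 5 per group). Tuba8 stayed at 11.4% in both groups, with a difference of -0.01 percentage points (exact permutation p = 0.984). Genes with a tyrosine codon at the end, which are the Tuba1 genes, thereby made up 48.9 ± 6.3% of alpha-tubulin FPKM in sham mice, between 38.2 and 53.7%. They made up 64.0 ± 2.2% in nAAC mice, between 62.2 and 67.5%.

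Among beta-tubulins, Tubb2a gained the most. Its share was 10.7, 10.6, 7.86, 7.67 and 10.9% in sham mice and 22.1, 20.4, 21.03, 18.1 and 19.1% in nAAC mice, a difference of 10.57 percentage points (exact permutation p = 0.0079). The share of Tubb2b rose from 2.77 ± 0.69 to 4.96 ± 1.20% (exact permutation p = 0.0079, n = 5 per group). Tubb5 fell from 28.0 ± 4.7 to 18.9 ± 3.4% (exact permutation p = 0.0238, n = 5 per group), with sham replicate 4 inside the nAAC range. Tubb4b kept the largest share, at 51.4 ± 6.6% in sham and 49.1 ± 2.3% in nAAC mice (exact permutation p = 0.532, n = 5 per group). Tubb6 went from 8.26 ± 0.996 to 6.97 ± 0.61% (exact permutation p = 0.0317, n = 5 per group), and its p was over 0.05 in 7 of the 10 fits that left out 1 mouse. Tubb5 and Tubb6 were thus higher in level and lower in share.

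**Figure D3:**
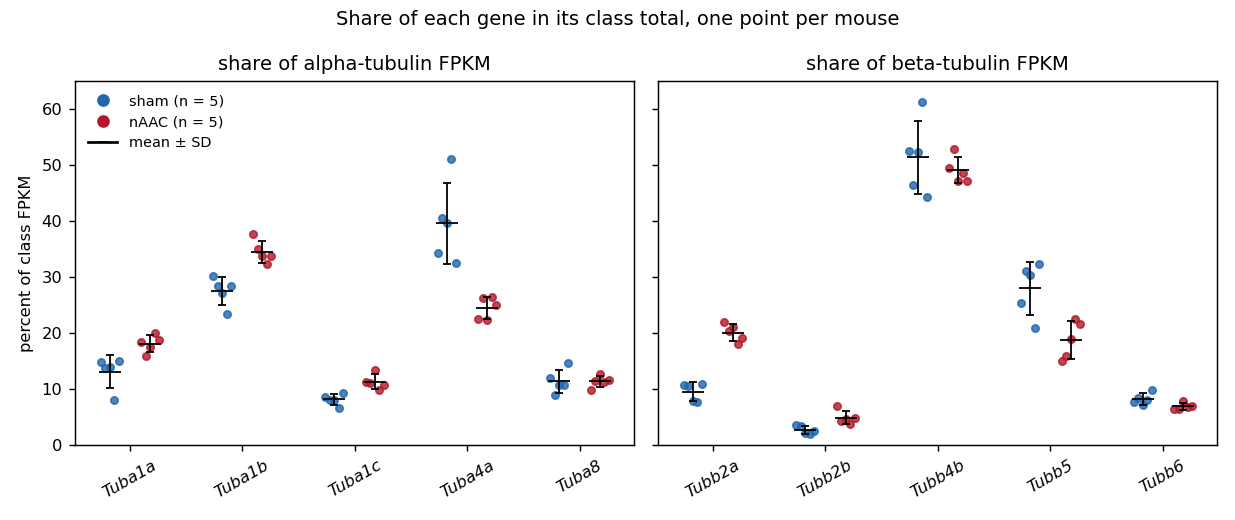
Percent of summed alpha-tubulin FPKM (left) or beta-tubulin FPKM (right) from each gene, 1 point per mouse for 5 sham (blue) and 5 nAAC (red) mice, with mean and SD in black. Tuba4a drops from between 32.5 and 51.1% to between 22.4 and 26.5%, and Tubb2a rises from between 7.67 and 10.9% to between 18.1 and 22.1%.

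The class totals are given as a description. Summed alpha-tubulin FPKM was 208.7, 189.8, 189.3, 360.4 and 171.8 in sham mice and 507.9, 438.2, 335.7, 345.6 and 368.9 in nAAC mice, a ratio of means of 1.78. Sham replicate 4 lay inside the nAAC range, and Tuba4a made up 51.1% of it. Summed beta-tubulin FPKM was 76.0, 62.3, 67.8, 97.4 and 75.1 in sham and 238.9, 249.7, 191.5, 184.8 and 180.9 in nAAC mice, a ratio of 2.76 with no overlap. Beta over alpha was 0.352 ± 0.061 in sham and 0.527 ± 0.046 in nAAC mice, and every nAAC mouse was above every sham mouse. Leaving Tuba4a out of the alpha total gave a ratio of means of 2.30.

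**Figure D4:**
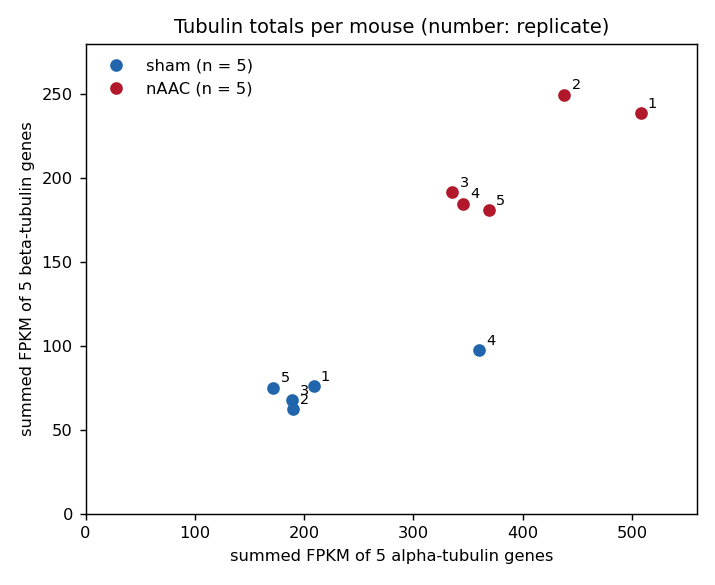
Summed FPKM of the 5 beta-tubulin genes against that of the 5 alpha-tubulin genes, 1 point per mouse labelled with its replicate number, 5 sham in blue and 5 nAAC in red. Sham replicate 4 lies among the nAAC mice on the alpha axis (360.4) and with the sham mice on the beta axis (97.4).

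Of the other tubulin genes, 3 of 10 passed the filter. The beta-tubulin Tubb4a rose from 0.713 ± 0.199 to 1.53 ± 0.35 FPKM (log2 FC 0.56, limma adjusted p = 0.005709), but after removal of GC and length trends its log2 FC was 0.16 (adjusted p = 0.484). Tubb4a averaged below 1 FPKM in sham mice and passed the filter only through the nAAC mice. The gamma-tubulin Tubg1, which nucleates microtubules, had a log2 FC of 0.39 (limma adjusted p = 0.04335) and lost the call in 13 of 19 alternatives, 8 of them fits without 1 mouse. Tubd1 had a log2 FC of 0.23 (limma adjusted p = 0.120). Tubb3, a neuronal beta-tubulin named here after its values were seen, did not reach the filter, with 0.0771 to 0.259 FPKM in sham and 0.714 to 2.67 in nAAC mice. Of 30 tubulin pseudogenes in the tables, 4 reached a mean FPKM of 1. They were Gm14150 with 5.03 FPKM in sham and 9.95 in nAAC mice, Tubb4b-ps1 with 2.02 and 4.44, Gm3226 with 1.54 and 4.00, and Gm5620 with 1.38 and 2.45. These loci have 97.11 to 98.67% identity with their closest member, so part of the reads could have been assigned to either locus.

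New alpha- and beta-tubulin is folded by the chaperonin CCT with prefoldin and then paired by the tubulin cofactors. Of 22 such genes, 5 were higher, which is 22.7% against 27.1% of all genes tested, and none was lower, against 4.6%. Their median log2 FC was 0.28. Those higher included the cofactor Tbcc (log2 FC 0.90, adjusted p = 0.0206), the CCT subunits Cct8 (0.56, adjusted p = 0.004751) and Cct3 (0.52, adjusted p = 0.005386), and Ttc5 (0.42, adjusted p = 0.0256), the factor that recognizes nascent tubulin chains in autoregulation (all limma). Other CCT subunits such as Tcp1 and Cct4 had log2 FCs of 0.08 and -0.07. The calls of Cct8, Cct3, Ttc5 and Tbcc were lost after median-ratio scaling (adjusted p = 0.145, 0.155, 0.266 and 0.0699), that of Ttc5 also in 5 of the 10 fits without 1 mouse and that of Tbcc without sham replicate 3 (adjusted p = 0.0512). Thus the count for the folding genes was not above the background. After median-ratio scaling, for which the shares of all genes called are not given, none was higher and 2 were lower. The list median log2 FC was then -0.006, against -0.02 over all genes.

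Enzymes that modify the tails moved in both directions. Of 21 genes, 14 were tested, 6 were higher (42.9%, against 27.1% of all genes tested) and 2 lower (against 4.6%), and the median log2 FC was 0.42, against 0.22 over all genes. After median-ratio scaling or removal of GC and length trends 3 were higher and 2 lower, with no shares of all genes called given for these settings. The list median log2 FC was then 0.20 and 0.12, against -0.02 over all genes in both settings. Ttll7, a polyglutamylase with a preference for beta-tubulin, rose from 1.11 ± 0.42 to 5.65 ± 0.48 FPKM (log2 FC 1.68, limma adjusted p = 2.27e-06). Ttll1, the catalytic subunit of another polyglutamylase complex, fell from 17.8 ± 5.7 to 6.94 ± 2.02 FPKM (log2 FC -1.23, limma adjusted p = 0.000981), and the deglutamylase Agtpbp1 fell from 17.5 ± 4.5 to 10.7 ± 1.2 (log2 FC -0.64, limma adjusted p = 0.0112, and 0.0722 with Xist, a gene expressed in females, as a covariate). Of the tyrosination cycle, the ligase Ttl rose from 3.64 ± 0.59 to 6.03 ± 0.45 FPKM with no overlap (log2 FC 0.60, limma adjusted p = 0.001208). The carboxypeptidase Vash1 was at 2.52 ± 1.68 FPKM in sham and 5.21 ± 1.70 in nAAC mice, with overlap (log2 FC 0.88, limma adjusted p = 0.0274). Its call was lost in 11 of 19 alternatives, among them median-ratio scaling (adjusted p = 0.078), Xist as a covariate (log2 FC 0.47, adjusted p = 0.282), removal of GC and length trends (0.40, adjusted p = 0.317) and 6 of the 10 fits without 1 mouse. Svbp, the partner of Vash1, had a log2 FC of 0.52 and did not pass (limma adjusted p = 0.121). Ttll12, a member of the Ttl-like family, had a log2 FC of 0.72 (limma adjusted p = 0.000188).

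Of 39 genes for microtubule-associated proteins and regulators of dynamics, 32 were tested, 14 were higher (43.8%, against 27.1% of all genes tested) and 1 was lower (against 4.6%), with a median log2 FC of 0.34, against 0.22 over all genes. Map6, which stabilizes microtubules, rose from 0.855 ± 0.381 to 4.91 ± 0.88 FPKM (log2 FC 1.68, limma adjusted p = 5.08e-06). Map1a, a structural microtubule-associated protein, rose from 0.398 ± 0.145 to 2.74 ± 0.72 (log2 FC 1.40, limma adjusted p = 1.24e-05). Both genes averaged below 1 FPKM in sham mice and passed the filter only through the nAAC mice. The same holds for Map1b (0.823 FPKM in sham mice), which is also among the 14 that were higher. Clip1, a plus-end tracking protein, was far more abundant and rose from 22.6 ± 7.0 to 51.5 ± 3.9 (log2 FC 1.21, limma adjusted p = 0.000436). Mapt, which encodes tau, had a log2 FC of 1.26 (limma adjusted p = 0.00329). Tppp, a tubulin polymerization-promoting protein, fell from 4.12 ± 0.90 to 2.46 ± 0.42 (log2 FC -0.55, limma adjusted p = 0.0103, and 0.054 with Xist as a covariate). After median-ratio scaling, for which the shares of all genes called are not given, the counts were 7 higher and 5 lower. The list median log2 FC was then 0.13, against -0.02 over all genes.

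Kinesin and dynein carry cargo along microtubules. Of 25 motor genes, 16 were tested, 9 were higher (56.2%, against 27.1% of all genes tested) and none was lower (against 4.6%). The median log2 FC was 0.44, against 0.22 over all genes. Kif5b, the ubiquitous kinesin-1 heavy chain, rose from 18.6 ± 2.4 to 40.6 ± 3.6 FPKM (log2 FC 1.09, limma adjusted p = 2.36e-05). Its light chain gene Klc1 had a log2 FC of 0.76, the dynein light chain Dynll1 0.83 and the light intermediate chain Dync1li1 0.76 (limma adjusted p = 0.004549, 0.000174 and 0.000625). The call of Klc1 was lost with Xist as a covariate (adjusted p = 0.0621). After median-ratio scaling, for which the share of all genes called is not given, 4 were higher. The list median log2 FC was then 0.17, against -0.02 over all genes.

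Among 5 genes for filament and dyad partners of the microtubule net, 4 were higher (80%, against 27.1% of all genes tested), with a median log2 FC of 1.09, against 0.22 over all genes. Des, the desmin filament that detyrosinated microtubules bind, rose from 364.3 ± 131 to 896.9 ± 154.6 FPKM (log2 FC 1.35, limma adjusted p = 0.000819). Vim, the intermediate filament of fibroblasts and other mesenchymal cells, had a log2 FC of 1.18 (limma adjusted p = 0.000119) and the linker Plec 1.09 (limma adjusted p = 0.000631). Bin1, which shapes T-tubules, had a log2 FC of 0.66 (limma adjusted p = 0.004583), and the call was lost with Xist as a covariate (adjusted p = 0.0597) and after removal of GC and length trends (log2 FC 0.30, adjusted p = 0.0593). Jph2, which holds the dyad together, had a log2 FC of 0.63 (limma adjusted p = 0.058).

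**Figure D5:**
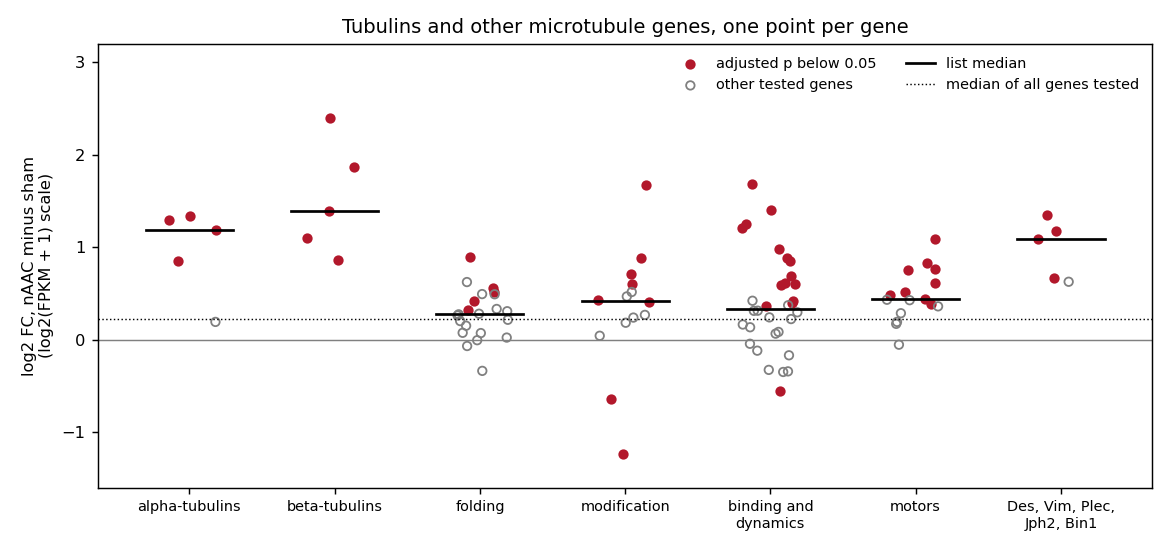
Log2 FC (nAAC minus sham, log2(FPKM + 1) scale) of each tested gene of the alpha- and beta-tubulins and of 5 lists of microtubule genes, filled red where the adjusted p was below 0.05 (limma), with the list median as a bar. The tubulin medians (1.19 and 1.39) lie above those of folding (0.28), modification (0.42), binding and dynamics (0.34), motor genes (0.44) and the filament and dyad partners (1.09), and the dotted line marks the median of all genes tested (0.22).

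The tissue was whole LV, so fewer cells of a type and less RNA per cell cannot be told apart. Cardiomyocyte markers were high in every library, with sums of 19750 to 31230 FPKM in nAAC and 21280 to 41170 in sham mice, and 3 of 12 were higher and 2 lower. Fibroblast markers summed to 1111 to 1764 FPKM in nAAC and 727.9 to 955 in sham mice, and 7 of 10 were higher. Mural cell markers summed to 272.2 to 398 and 180.9 to 285.7 FPKM, and 6 of 8 were higher. Among these was a marker that averaged 0.881 FPKM in sham mice and passed the filter only through the nAAC mice. For endothelial cells 1 of 8 markers was higher, for macrophages and leukocytes 2 of 7 tested, for atrial tissue 1 of 4 tested (Dkk3), and for erythroid cells none of 5. Atrial markers summed to 14.3 to 250.5 FPKM in nAAC and 4.37 to 49.4 in sham mice. The highest sums were in nAAC replicates 2 (151.8) and 3 (250.5). This spread between mice limits which atrial markers can be called. All these marker counts stand beside 27.1% higher and 4.6% lower among all genes tested. The shares higher of cardiomyocyte (25%), macrophage and leukocyte (28.6%) and atrial markers (25%) were near 27.1%. For cardiomyocyte markers the 2 lower of 12 were a larger share than 4.6%. After median-ratio scaling 1 cardiomyocyte marker was higher and 3 were lower, and the shares of all genes called in that setting are not given. No proliferation marker and no T or B cell marker reached the filter. Since several tubulins are also neuronal, markers of Schwann cells and neurons were examined. Uchl1, a neuronal hydrolase, was at 6.31 FPKM in sham and 20.7 in nAAC mice, whereas the neuronal genes Th and Rbfox3 were at most 0.0538 and 0.0167 FPKM in any library. The part of any of these cell types in the tubulin values was not tested.

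The genes whose pattern over the 10 libraries was nearest to each of the 9 tubulins that rose were found by the root mean square difference of their centred log2 values, among 6495 genes. For Tubb2a they were Uck2 (0.133), Flnc and Meox1, and for Tubb2b Fhl1 (0.202), Cpeb1 and Dbn1. Cyb561 was nearest to Tuba1a (0.135), Tuba1b and Tuba1c. For Tubb4b the nearest was S100a6 (0.186), for Tubb5 Anxa5 (0.0877), for Tubb6 Dnaja4 (0.092) and for Tuba8 Gpx1 (0.137). The libraries fall into 2 groups, and the measure takes in the difference between them.

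RefSeq promoter windows of 300 bases (GRCm38.p6) were found for 8 of the 10 genes, without Tubb2b and Tubb6. The letters GCGTG, the core of the element bound by the aryl hydrocarbon receptor, which the study examined in these hearts, occurred on either strand in 5 of 8, against 32.4% of all promoters. CCAAT occurred in 4 of 8, against 37.4%, and TATAAA in 2 of 8 (Tubb2a and Tubb4b), against 13.6%. Tuba4a, which did not pass the test, also held GCGTG. The GC content of the 8 windows was 53.67 to 72.67%, and the shares of all promoters were not matched for GC content. The 250 bases before the start are shown for the beta-tubulin with the largest change (Tubb2a, chr13:34078009-34078258) and for the most abundant one (Tubb4b, chr2:25224703-25224952), both on the minus strand, 5′ to 3′ with any of these letters in capitals.
Tubb2a: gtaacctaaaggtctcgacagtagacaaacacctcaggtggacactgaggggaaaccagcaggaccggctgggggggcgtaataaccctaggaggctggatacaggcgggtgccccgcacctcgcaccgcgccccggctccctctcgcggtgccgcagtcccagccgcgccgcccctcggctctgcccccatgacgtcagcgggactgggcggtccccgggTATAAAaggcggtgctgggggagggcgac
Tubb4b: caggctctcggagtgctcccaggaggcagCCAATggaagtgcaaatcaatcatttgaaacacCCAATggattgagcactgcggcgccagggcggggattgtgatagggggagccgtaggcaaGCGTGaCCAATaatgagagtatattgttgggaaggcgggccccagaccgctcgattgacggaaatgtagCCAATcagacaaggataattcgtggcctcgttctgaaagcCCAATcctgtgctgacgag
In this stretch Tubb2a held 1 TATAAA and no CCAAT, and Tubb4b held 5 CCAAT and 1 GCGTG. The 300-base windows of both genes also took in 50 bases after the start, which are not shown. The GCGTG match of Tubb2a and the TATAAA match of Tubb4b lay in those bases. These are matches of letters and were not tested for binding.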

How the data were processed

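LV RNA of 5 nAAC and 5 sham mice was sequenced, with 1 library per mouse, and groups and replicate numbers came from the labels. Each mouse has its own gene table, in which the authors deposited 3 measures: coverage (mean reads over each base), FPKM, and TPM, which the authors scaled to a fixed sum. The build per the labels was mm10, and the aligner, quantification tool and strand setting are not given in the sources used here. Depth, estimated from the ratio of FPKM to coverage, was 4.86 to 6.82 gigabases aligned. Counts cannot be recovered, so no count model was used.

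Rows sharing a gene ID (7 to 12 per table) were summed. Limma 3.58.1 (R 4.3.3) was run with its trend option on log2(FPKM + 1). Genes entered if their FPKM averaged 1 or more over the libraries, and the Benjamini-Hochberg adjustment covered all of these. DEGs also had an absolute log2 FC above 1. The script was tested on simulated data. Shares were tested by two-sided exact permutation. P values measure the spread between mice. Sequences, identity and shared windows came from GENCODE M21 (BLAST 2.17.0) and promoters from RefSeq. Named genes are the 10 members, other tubulins and pseudogenes with a mean FPKM of at least 1, and up to 4 called genes per direction and list, besides the few marked or given as contrast. The members and lists were chosen with earlier results of these data known. Alternatives were other scalings, TPM, other filters and pseudocounts, a replicate block, Xist as covariate, rescaling without mitochondrial genes, each mouse left out and, added after seeing the data, removal of GC and length trends and the addition of related loci. Some sequences and 1 marker gene are not reported here.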

Additional observations from a re-analysis of the deposited data

Results flagged for a closer look

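In 4 of 46 groups of 5 mice examined, 1 mouse stood apart from the others of its group, where 2.3 would be flagged by chance. The gap to the nearest mouse, as a fraction of the range of the group, was 0.732 for Tuba4a (sham replicate 4 highest, 7.53 on the log2(FPKM + 1) scale), 0.804 for the alpha-tubulin total (sham replicate 4 highest, FPKM 360) and 0.823 for the share of Tuba1a (sham replicate 4 lowest, 8.08%). It was 0.734 for Tubb5 (sham replicate 5 highest, 4.66 on the log2 scale). The critical value for 5 mice is 0.71. Sham replicate 4 had the highest sham FPKM for 6 of the 10 genes, and nAAC replicate 1, the most deeply sequenced library, had the highest nAAC FPKM for 6 of the 10.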

How the results depend on the processing

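Of the 10 tubulin genes, 9 were higher and none lower under every alternative of scaling, unit, filter, pseudocount and covariate and with each mouse left out, except that 10 were higher without sham replicate 4. The number of DEGs was 7, and it was 5 after median-ratio or upper-quartile scaling, 9 with TPM, 8 without sham replicate 4 and 4 after removal of GC and length trends (Tuba1a, Tubb2a, Tubb2b and Tubb4b). The log2 FC of Tubb2a lay between 2.06 and 2.62 over 19 alternatives. The log2 FC of Tuba4a reversed to -0.10 (median-ratio scaling), -0.0701 (upper-quartile scaling) and -0.12 (GC and length trends removed).

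With single mice left out, the difference in share lay between -0.61 and 0.785 percentage points for Tuba8 and between -4.06 and 0.174 for Tubb4b, so both changed sign, and 7 or 8 of 10 shares had an exact p below 0.05. For the lists, the counts higher after median-ratio scaling were 0 for folding, 3 for modification, 7 for binding and dynamics, 4 for motors and 1 for other tubulins, and the counts lower were 2 for folding and 5 for binding and dynamics. After removal of GC and length trends the counts higher were 3 for modification, 9 for binding and dynamics, 5 for motors and 0 for other tubulins, and the counts lower were 3 for folding and 6 for binding and dynamics. With single mice left out the counts higher ranged from 2 (without sham replicate 3) to 9 (without sham replicate 4) for folding, from 5 (without nAAC replicate 4) to 11 for motors and from 1 to 2 for other tubulins, and the counts lower from 0 to 1 for folding and from 1 to 3 (without sham replicate 4) for binding and dynamics. The shares of all genes called under these alternatives are not given here. Those of 27.1% higher and 4.6% lower belong to the fit of FPKM as deposited for all 10 mice. The cause of these changes was not tested.

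A fit with replicate number as a block left 9 genes higher and 7 DEGs. Correlations between the deviations of same-numbered mice ran from -0.316 to 0.192. A pairing need not make mice deviate together over all genes, so these values cannot decide whether the numbers pair mice. The labels do not state a pairing. FPKM without read counts gives no counting error for low genes such as Tubb2b, and only 5 mice per group limit the precision of every share.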
